A study of Rattus norvegicus with 12 samples.

Results

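The purinergic P2 receptors described here are 10 rat genes, the P2X subunits P2rx2, P2rx3, P2rx4, P2rx5, P2rx6 and P2rx7 and the P2Y receptors P2ry1, P2ry2, P2ry12 and P2ry14. They were chosen by name. Each was read from the row whose gene symbol equals the member, and where a symbol had several rows from the row with the highest mean level. All 10 were found among the 16458 gene symbols of the SNL table and the 16441 of the shRNA table. The tissue was the fifth lumbar dorsal root ganglion (L5 DRG), which holds the cell bodies of sensory neurons together with satellite glia, Schwann cells, vessels and immune cells. The rats were Sprague Dawley, male by the sample labels, whereas the methods name rats of both sexes, aged 5 to 6 weeks, for all experiments. RNA of 4 groups with 3 libraries each was taken on day 14 after spinal nerve ligation (SNL), a nerve injury that serves as a model of neuropathic pain. Control is the uninjured, contralateral side of ligated rats, so it is not tissue of an unoperated animal. SNL is the ligated side. The remaining groups were ligated 7 days after an adeno-associated virus of serotype 6 had been injected into the L5 DRG, carrying either a control shRNA (SNL+control shRNA) or an shRNA against Neat1, a long noncoding RNA (SNL+Neat1 shRNA).

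The deposited values are FPKM, a count of fragments scaled to transcript length and to the mapped fragments of the library, with 1 value per group over its 3 libraries. The spread between animals is therefore unknown, no difference below has a replicate check or a test, and the absolute depth is unknown. A gene was counted as higher or lower where its ratio between the groups of a table was past 1.5-fold and the mean of the 2 FPKM values was at least 1. The SNL and shRNA tables were normalized separately, and levels set across them carry that limit. Over 10825 genes, the log2 ratio of SNL+control shRNA over SNL had a median of 0.12 and a range from 5% to 95% of genes of -0.40 to 0.97, and the members' median was 0.14. The targeted RNA was read from the unnamed row 8.96 kb from Frmd8. It was 141 FPKM in Control and 294 FPKM in SNL, and 355 FPKM in SNL+control shRNA and 374 FPKM in the group labelled Neat1 shRNA, and this row thus showed no drop between the shRNA groups. It spans rn5 chr1:228133846-228137283, the longer Neat1 isoform was not read separately, and the knockdown was not assessed in any other way here. The study measured Neat1 in the L5 DRG by quantitative PCR as well, which was not used here. This row alone does not tell whether the knockdown worked. Beside the tissue label, 13 matched pan-neuronal markers were read, and none was at 0. Their summed level was 9130 FPKM in Control and 10748 FPKM in SNL, although 6 of the 13 were lower after SNL and 3 were higher. Levels above 0 of such markers do not tell a ganglion from other neural tissue.

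P2X receptors are cation channels of 3 subunits that open when extracellular ATP binds, and P2Y receptors are G protein-coupled receptors for ATP, ADP, UTP, UDP or UDP-sugars. Injured cells and firing neurons release ATP, ectoenzymes break it down to ADP, AMP and adenosine, and adenosine acts on a receptor family of its own. In sensory ganglia, P2X3 marks mainly the nonpeptidergic nociceptors, whereas P2X4, P2X7 and P2Y12 are best known from macrophages, microglia and glia.

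After SNL, 4 receptor genes were higher (P2rx2, P2rx7, P2ry12 and P2ry14), 4 were lower (P2rx3, P2rx5, P2rx6 and P2ry1) and 2 were neither (P2rx4 and P2ry2), and all 10 passed the filter on low values. Of the 10807 genes past that filter, 18.3% were higher and 16.0% were lower. The members' median log2 ratio was -0.13 against a median of all genes of -4.5e-05, so the members spread in both directions around the centre of all genes. P2X genes were 2 higher, 3 lower and 1 neither, and P2Y genes were 2 higher, 1 lower and 1 neither. Levels in bulk tissue do not separate fewer cells of a type from less RNA per cell.

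**Figure D1:**
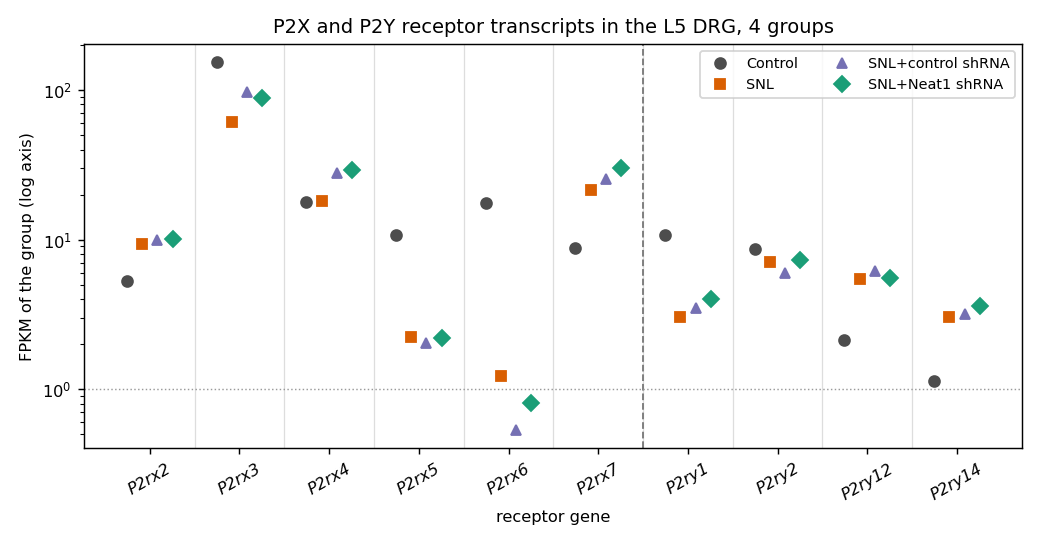
FPKM of each receptor gene (y axis, log scale) in the 4 groups, 1 point per group with no error bar because the files hold 1 value per group; the dotted line is at 1 FPKM and the dashed line separates P2X from P2Y genes. P2rx3 was the highest in every group, from 61.4 to 152.8 FPKM, and P2rx6 went from 17.6 FPKM in Control to between 0.534 and 1.23 FPKM in the ligated groups.

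P2rx3 (rn5 chr3:78914028-78968278) encodes the subunit of the fast ATP-gated channel of nociceptors. Its level was 152.8 FPKM in Control, 61.4 FPKM in SNL, 97.2 FPKM in SNL+control shRNA and 87.7 FPKM in SNL+Neat1 shRNA. It was the most abundant receptor gene in each group, and every ligated group was below Control. The SNL level was 2.49-fold lower than Control (log2 ratio -1.32). The drop was smaller when the SNL+control shRNA group of the other table stood in for SNL. The log2 ratio was then -0.65 as deposited and -0.79 after scaling to the median of all genes. That comparison was chosen after the values were seen. The P2rx3 row overlaps that of Ssrp1, a chromatin factor gene, which went from 37.0 to 41.8 FPKM after SNL.

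P2rx2 (rn5 chr12:54133122-54136379) encodes a slowly desensitizing subunit that forms channels alone or together with P2X3. Its level was 5.28 FPKM in Control, 9.37 FPKM in SNL, 9.98 FPKM in SNL+control shRNA and 10.1 FPKM in SNL+Neat1 shRNA. The 3 ligated groups lay close together and above Control, and SNL was 1.77-fold above Control (log2 ratio 0.83). With P2rx2 higher and P2rx3 lower, the ratio of P2rx2 to P2rx3 FPKM went from 0.0345 in Control to 0.153 in SNL, and it was 0.103 and 0.115 in the shRNA groups. P2rx3 transcripts stayed in excess in all 4 groups.

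P2rx6 (rn5 chr11:90486478-90501263) encodes a subunit that works mainly in mixed channels with other P2X subunits. Its level was 17.6 FPKM in Control, 1.23 FPKM in SNL, 0.534 FPKM in SNL+control shRNA and 0.806 FPKM in SNL+Neat1 shRNA. The gene went from place 3 among the 10 receptors in Control to place 10 in every ligated group. SNL was 14.3-fold below Control (log2 ratio -3.83), the largest difference of the 10, and 0.888% of all genes past the filter had a lower ratio. Its locus overlaps that of Slc7a4, a member of the cationic amino acid transporter family, which went from 5.76 to 2.82 FPKM.

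P2rx5 (rn5 chr10:59462874-59478096) encodes a further ATP-gated subunit. Its level was 10.7 FPKM in Control, 2.22 FPKM in SNL, 2.05 FPKM in SNL+control shRNA and 2.20 FPKM in SNL+Neat1 shRNA. The ligated groups were nearly level, and SNL was 4.84-fold below Control (log2 ratio -2.28). A second P2rx5 row of the SNL table held only 0.393 FPKM in Control and 0.0606 FPKM in SNL, so the choice of row bears little on the level.

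P2rx7 (rn5 chr12:41241090-41284906) encodes the ATP-gated channel that drives interleukin-1β release in macrophages. Its level was 8.82 FPKM in Control, 21.5 FPKM in SNL, 25.5 FPKM in SNL+control shRNA and 29.9 FPKM in SNL+Neat1 shRNA. All ligated groups were above Control, and SNL was 2.44-fold above it (log2 ratio 1.28). P2rx4 (rn5 chr12:41196777-41214465), a channel gene known for its induction in spinal microglia after nerve injury, lies 26.6 kb from P2rx7. Its level was 17.9 FPKM in Control, 18.2 FPKM in SNL, 27.7 FPKM in SNL+control shRNA and 29.4 FPKM in SNL+Neat1 shRNA. Within the SNL table P2rx4 was level (log2 ratio 0.03), while both groups of the shRNA table were higher, and the log2 ratio of SNL+control shRNA over Control was 0.63 as deposited and 0.49 after scaling to the median of all genes. The call for P2rx4 therefore depends on which ligated group is used and on the scaling. The ratio of P2rx7 to P2rx4 FPKM was 0.492 in Control and 1.18, 0.923 and 1.02 in the SNL, SNL+control shRNA and SNL+Neat1 shRNA groups.

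P2ry1 (rn5 chr2:170729570-170736293) encodes a receptor for ADP that signals through Gq. Its level was 10.7 FPKM in Control, 3.02 FPKM in SNL, 3.51 FPKM in SNL+control shRNA and 4.03 FPKM in SNL+Neat1 shRNA. It was the most abundant of the 4 P2Y genes in Control and no longer so in any ligated group, with SNL 3.54-fold below Control (log2 ratio -1.82). P2ry2 (rn5 chr1:172226569-172242267) encodes the Gq-coupled receptor for ATP and UTP. Its level was 8.61 FPKM in Control, 7.08 FPKM in SNL, 5.99 FPKM in SNL+control shRNA and 7.32 FPKM in SNL+Neat1 shRNA, and no ligated group was past 1.5-fold of Control in the deposited values. The log2 ratio of SNL over Control was -0.28.

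P2ry12 encodes a Gi-coupled receptor for ADP, known from platelets and microglia, and P2ry14 a Gi-coupled receptor for UDP-glucose and other UDP-sugars. P2ry12 was 2.13 FPKM in Control, 5.45 FPKM in SNL, 6.18 FPKM in SNL+control shRNA and 5.52 FPKM in SNL+Neat1 shRNA. P2ry14 was 1.13 FPKM in Control, 3.02 FPKM in SNL, 3.19 FPKM in SNL+control shRNA and 3.61 FPKM in SNL+Neat1 shRNA. Both genes were lowest in Control and similar across the ligated groups, with SNL 2.56-fold above Control for P2ry12 (log2 ratio 1.36) and 2.66-fold for P2ry14 (log2 ratio 1.41). In the SNL table both rows were assigned to the same merged locus (rn5 chr2:168631893-168996272), which also holds P2ry13, Gpr171 and rows of Igsf10 and Med12l. The shRNA table separates them, with P2ry12 at rn5 chr2:168872861-168996551 and P2ry14 at rn5 chr2:168750629-168791327, although P2ry12 still overlaps Igsf10 rows there. How reads were divided among these overlapping rows is not given in the sources used here, so the P2ry12 and P2ry14 levels are uncertain to that extent. P2ry1 lies 1733 kb from P2ry12 on the same chromosome and went in the opposite direction.

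Across the tables, the 8 genes past 1.5-fold after SNL stayed past it in the same direction in all 3 ligated groups against Control, 4 higher and 4 lower of 10. Among 10839 genes with a mean over the 4 groups of at least 1 FPKM, 18.2% were higher and 12.3% were lower by this criterion, which was chosen after the values were seen. The 3 comparisons share the Control group, and SNL, by which the 8 genes were picked, is 1 of the 3 ligated groups. Over all genes, 1976 were higher and 1334 lower by this criterion. After SNL alone, with the filter on the mean of its 2 groups, 1978 were higher and 1726 lower. In Control the order of levels was P2rx3, P2rx4, P2rx6, P2rx5, P2ry1, P2rx7, P2ry2, P2rx2, P2ry12 and P2ry14. In SNL it was P2rx3, P2rx7, P2rx4, P2rx2, P2ry2, P2ry12, P2ry14, P2ry1, P2rx5 and P2rx6. With 1 value per group, no pair of neighbours in these orders can be separated by its spread, and P2rx5 and P2ry1 in Control, and P2ry14 and P2ry1 in SNL, were equal to within rounding.

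The make-up of each family changed accordingly. The summed FPKM of the 6 P2X genes was 213 in Control, 114 in SNL, 163 in SNL+control shRNA and 160 in SNL+Neat1 shRNA. Without P2rx3 these sums were 60.4, 52.5, 65.8 and 72.4, so P2rx3 alone carried most of the difference between Control and SNL. P2rx3 made up 71.7% of the P2X sum in Control and 53.9% in SNL, while P2rx7 went from 4.14% to 18.9%. The 4 P2Y genes summed to 22.6 FPKM in Control, 18.6 FPKM in SNL, 18.9 FPKM in SNL+control shRNA and 20.5 FPKM in SNL+Neat1 shRNA. P2ry1 made up 47.3% of the P2Y sum in Control and 16.3% in SNL, and the ratio of P2ry12 to P2ry1 FPKM went from 0.199 to 1.81.

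**Figure D2:**
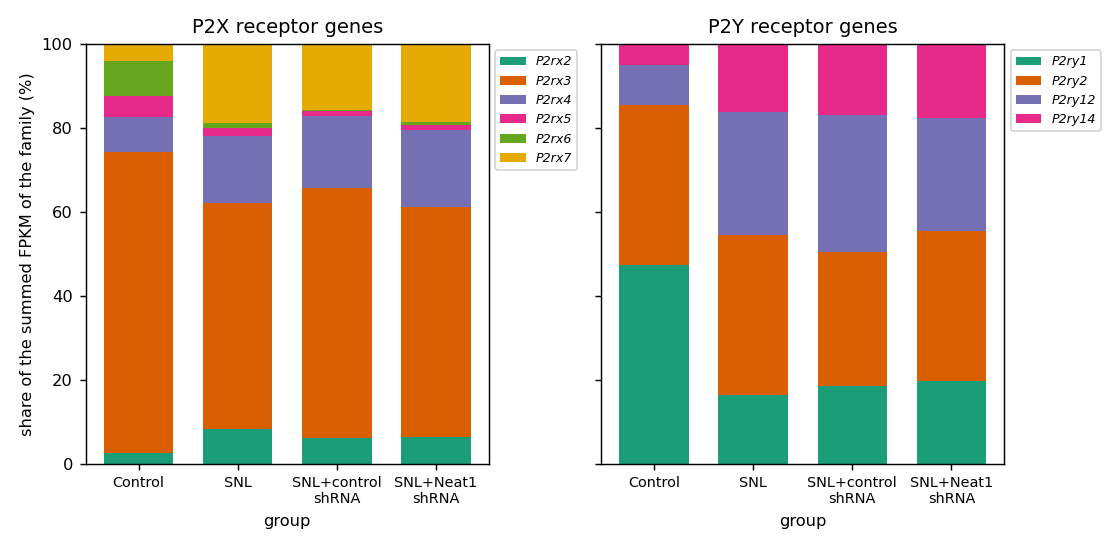
Share of each gene in the summed FPKM of its family (y axis, percent), with the 6 P2X genes on the left and the 4 P2Y genes on the right, 1 stacked bar per group. P2rx3 covers 71.7% of the P2X bar in Control and 53.9% in SNL, and P2ry1 covers 47.3% of the P2Y bar in Control and 16.3% in SNL.

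Markers of other cell types were read beside these values. After SNL, all 12 matched macrophage markers were higher, with their sum going from 57.5 FPKM in Control to 304 FPKM in SNL, and none was at 0 in either group. The 4 T cell markers past the filter were all higher, and the sum of the 7 matched went from 8.79 to 37.2 FPKM. Most of both sums was Cd4, which went from 6.48 to 27.5 FPKM, while Cd3d, Cd3e and Cd8a were under the filter. All 5 fibroblast markers were higher, from a sum of 695 to 1685 FPKM. These lists moved in the same direction as P2rx2, P2rx7, P2ry12 and P2ry14. So did 3 of the 13 pan-neuronal markers, Tubb3, Stmn2 and Gap43, while 6 were lower. The part of any of these markers in the receptor differences was not tested. Of 8 nonpeptidergic nociceptor markers past the filter, 6 were lower and 1 was higher, and the sum went from 370 to 243 FPKM. Mrgprd, a receptor gene of these neurons, went from 22.0 to 0.192 FPKM and Scn11a, the sodium channel Nav1.9, from 73.0 to 1.06 FPKM, whereas Gfra1 went from 45.5 to 131 FPKM. Of 13 pan-neuronal markers, 6 were lower and 3 were higher. Most of the nonpeptidergic list moved in the direction of P2rx3, and so did the 6 lower pan-neuronal markers. The part of either list in the P2rx3 difference was not tested. Of 8 satellite glia markers 3 were lower and 1, Gfap, was higher, and of 8 Schwann cell markers 1 was lower and 2 were higher. Of 8 endothelial and mural markers 1 was higher, of 3 microglia-associated markers past the filter 2 were higher, Tmem119 and Gpr34, and of 9 reference genes 1 was lower.

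With the group labelled Neat1 shRNA set against SNL+control shRNA, 0 of the 9 receptor genes past the filter were higher and 0 were lower. Of all 10946 genes past the filter, 1.27% were higher and 3.51% were lower. The 9 ratios ran from 0.892 for P2ry12 to 1.22 for P2ry2, and the central 90% of all genes lay between log2 ratios of -0.45 and 0.32. The members' median log2 ratio was 0.10 and that of all genes was -0.0036. The log2 ratios were 0.01 for P2rx2, -0.15 for P2rx3, 0.09 for P2rx4, 0.10 for P2rx5 and 0.23 for P2rx7. They were 0.20 for P2ry1, 0.29 for P2ry2, -0.17 for P2ry12 and 0.18 for P2ry14, so each of these genes lay closer between the shRNA groups than 1.5-fold. P2rx6, at 0.534 and 0.806 FPKM, had a ratio of 1.51 but a mean of 0.670 FPKM and did not pass the filter. In this comparison 6 of 7 T cell markers were lower, with a sum of 120 FPKM in SNL+control shRNA and 54.9 FPKM in SNL+Neat1 shRNA. Cd4, the marker not past 1.5-fold, held 55.2 and 37.8 FPKM of these sums. Of 12 macrophage markers 2 were lower, with a sum of 529 against 425 FPKM. Of 9 Schwann cell markers 2 were higher, with a sum of 5161 against 7214 FPKM, and of 8 endothelial and mural markers 2 were higher. No T cell or macrophage marker was at 0. The macrophage markers had a median log2 ratio of -0.25. Beside them, some receptor genes known from macrophages, microglia or other blood cells, picked after values were seen, lay on both sides of 1. Their ratios were 1.17 for P2rx7, 1.06 for P2rx4, 0.892 for P2ry12, 0.836 for P2ry6, 0.839 for P2rx1 and 0.573 for P2ry13. P2ry14 had a ratio of 1.13, and P2ry10, under the filter, of 0.273. The part of the macrophage markers in these ratios was not tested.

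**Figure D3:**
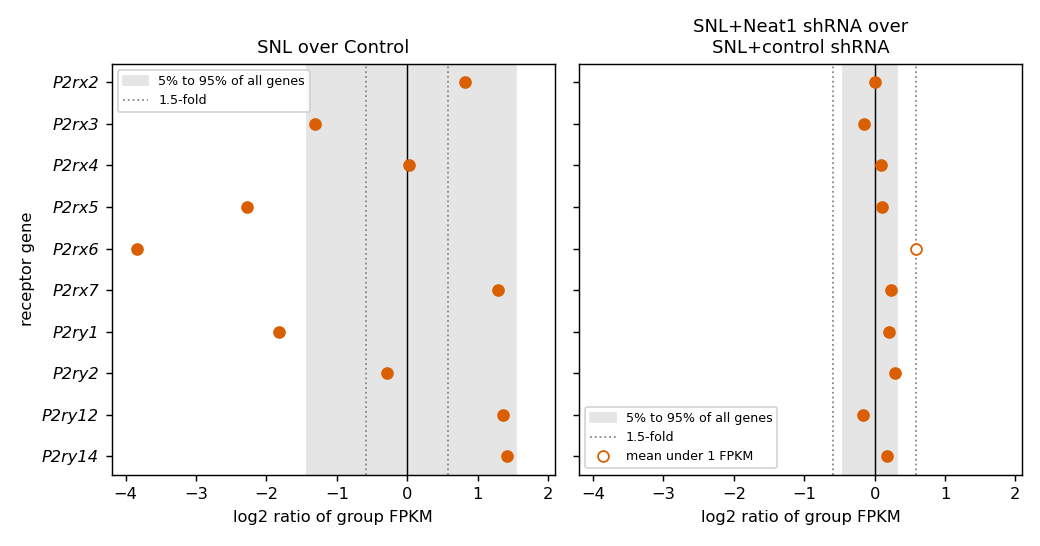
Log2 ratio of group FPKM (x axis) for each receptor gene (y axis), for SNL over Control on the left and SNL+Neat1 shRNA over SNL+control shRNA on the right; grey bands hold the central 90% of all genes past the filter, dotted lines mark 1.5-fold, and the open point is a gene with a mean under 1 FPKM. After SNL the ratios ran from -3.83 to 1.41, and between the shRNA groups the 9 filled points ran from -0.17 to 0.29.

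The other genes of purinergic signalling were taken from 4 lists. Among the remaining P2 receptors, P2rx1, an ATP-gated channel gene, went from 0.483 FPKM in Control to 2.43 FPKM in SNL, and P2ry6, the gene of the UDP receptor, from 0.651 to 3.79 FPKM. These were the 2 genes of that list past the filter and both were higher, while P2ry13, an ADP receptor gene, was 0.368 and 1.28 FPKM and P2ry10 was 0.0283 and 0.268 FPKM. P2ry6 lies 31.6 kb from P2ry2 and P2rx1 lies 142 kb from P2rx5, and in each pair the member was level or lower while its neighbour was higher. P2ry4 was read only in a row joined with Arr3 and Pdzd11 and has no value of its own.

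Of the 3 adenosine receptor genes past the filter, 2 were lower and 0 higher. Adora1, the gene of the Gi-coupled A1 receptor, went from 29.4 to 6.49 FPKM and Adora2b from 2.93 to 0.866 FPKM, while Adora2a was 4.62 and 4.57 FPKM. The list named nucleotide-degrading ectoenzymes, which also holds Ada and Enpp2, had 9 genes past the filter. Of these, 2 were higher and 3 were lower. Acpp, the phosphatase gene whose product forms adenosine from AMP on nociceptors, went from 93.9 to 10.5 FPKM, Entpd3 from 33.7 to 5.50 FPKM and Enpp2 from 9.74 to 6.09 FPKM. Entpd1, which encodes the ATP- and ADP-degrading enzyme CD39, went from 1.20 to 2.53 FPKM and Enpp3 from 3.27 to 6.48 FPKM. Nt5e, the AMP-degrading CD73, was 4.57 and 6.67 FPKM, short of 1.5-fold.

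Of 5 genes of ATP release and nucleoside transport past the filter, 1 was higher and 2 were lower. Panx1, a channel gene of ATP release, went from 7.63 to 18.1 FPKM, and its relative Panx2 from 47.0 to 14.7 FPKM. Slc29a1, an adenosine transporter gene, went from 8.71 to 3.43 FPKM. Between the shRNA groups, Panx2 was higher, at 8.41 FPKM in SNL+control shRNA and 15.2 FPKM in SNL+Neat1 shRNA, and P2ry13 was lower, at 2.89 and 1.66 FPKM. No adenosine receptor or ectoenzyme gene past the filter was past 1.5-fold in that comparison.

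**Figure D4:**
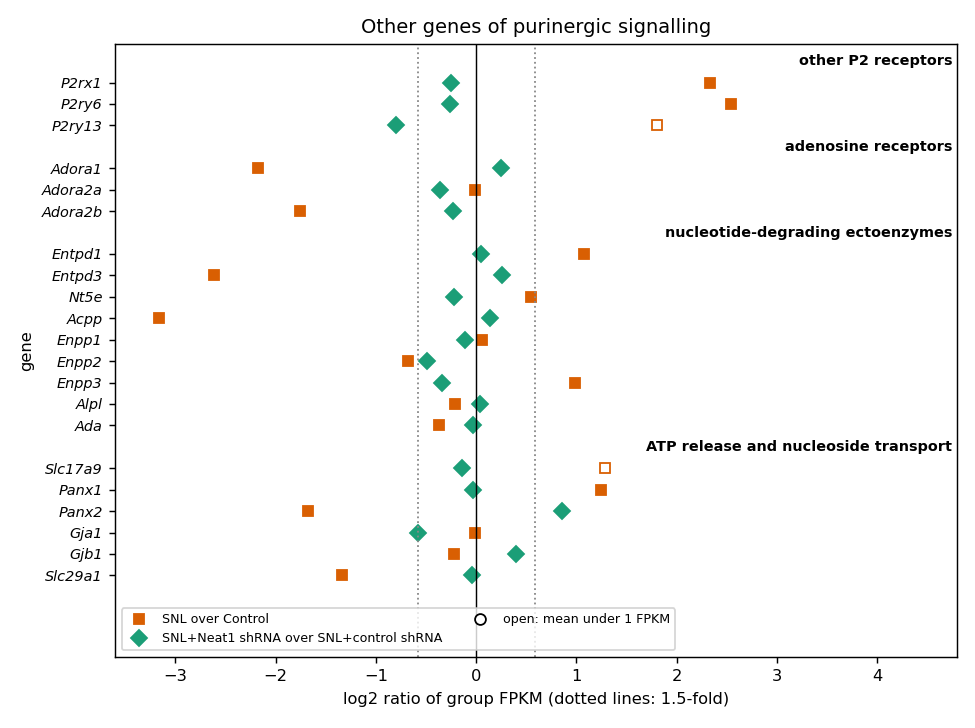
Log2 ratio of group FPKM (x axis) for other genes of purinergic signalling (y axis), squares for SNL over Control and diamonds for SNL+Neat1 shRNA over SNL+control shRNA; open symbols have a mean under 1 FPKM, dotted lines mark 1.5-fold, and genes with a mean under 1 FPKM in both tables, such as P2ry10, are not plotted. Among the plotted genes, after SNL Acpp at -3.16, Entpd3 at -2.61 and Adora1 at -2.18 lay farthest to the left, and P2ry6 at 2.54 farthest to the right.

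The genes whose pattern was most like that of P2rx3 and P2ry2, the most abundant P2X and P2Y gene over the 4 groups, were sought by distance between pairs of log2 ratios, 1 from each table, over 10425 genes. For P2rx3 they were Cnr1, at a distance of 0.0292, Pde4d at 0.0365 and Dapk1 at 0.0433. Cnr1 encodes the cannabinoid receptor CB1 and went from 3.62 to 1.43 FPKM after SNL. For P2ry2 they were Mid1 at 0.0182, Il11ra1 at 0.0207 and Sat2 at 0.0212. The likeness rests on 2 ratios per gene, and 13 genes lay within 0.1 of P2rx3 and 60 within 0.1 of P2ry2.

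RefSeq promoter windows of GRCr8, 250 bases before to 50 after an annotated start, were matched for 7 of the 10 genes in 8 windows. Windows of 3 genes are shown for members that moved in different directions, P2rx3 (chr3:90531266-90531565, minus strand), P2ry1 (chr2:147391411-147391710, plus strand) and P2rx7 (chr12:39594873-39595172, minus strand). Each runs 5′ to 3′ along the gene, with CpG dinucleotides, the sites of DNA methylation, in capitals.
P2rx3: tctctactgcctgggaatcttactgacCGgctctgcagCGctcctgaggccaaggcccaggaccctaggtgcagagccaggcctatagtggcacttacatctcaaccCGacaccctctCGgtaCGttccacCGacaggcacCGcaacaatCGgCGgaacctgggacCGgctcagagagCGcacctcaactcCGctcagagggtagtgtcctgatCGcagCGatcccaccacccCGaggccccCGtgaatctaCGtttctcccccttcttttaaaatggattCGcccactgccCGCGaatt
P2ry1: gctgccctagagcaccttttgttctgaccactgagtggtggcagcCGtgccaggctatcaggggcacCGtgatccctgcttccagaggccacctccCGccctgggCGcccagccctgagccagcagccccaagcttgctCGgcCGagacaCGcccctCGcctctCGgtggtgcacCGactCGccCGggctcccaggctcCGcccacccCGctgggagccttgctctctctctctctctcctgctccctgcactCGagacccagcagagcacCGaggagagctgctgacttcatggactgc
P2rx7: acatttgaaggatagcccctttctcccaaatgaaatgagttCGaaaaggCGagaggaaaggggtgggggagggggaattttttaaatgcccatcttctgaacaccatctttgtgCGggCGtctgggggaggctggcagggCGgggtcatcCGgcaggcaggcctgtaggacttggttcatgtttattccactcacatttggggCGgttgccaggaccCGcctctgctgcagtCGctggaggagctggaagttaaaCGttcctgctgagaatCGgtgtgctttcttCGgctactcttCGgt
The P2rx3 window shown, at the outermost annotated start, holds 20 CpG, the P2ry1 window 16 and the P2rx7 window 13. A second P2rx3 window, for a start 2006 bases from the outermost, holds 8 and is not shown. The start of the P2rx7 window is 62 bases from the outermost annotated start of that gene. The median of all 33469 windows is 7. The P2rx6 window, for a start 2221 bases from the outermost annotated start of that gene, holds 5, so the lower genes P2rx3, P2ry1 and P2rx6 span both sides of the median.

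The letters of 10 short motifs were searched on both strands of the 8 windows. No window held TATAAA (14.2% of all windows), TGANTCA (7.33%), TGACGTCA (1.83%), TGTGGT (17.3%), GAGGAAGT (2.42%) or the interferon-stimulated response element (3.92%). The letters GGGCGG were in 4 windows (33.1% of all), CANNTG in 6 (72.1%), GAGGAA, which is also part of GAGGAAGT, in 3 (27.6%) and ACGTG in 1 (19.3%). With so few windows these counts only describe the 8 windows, of which 3 are printed. The motifs were chosen after the expression values were seen.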

How the data were processed

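Stranded mRNA libraries of rat L5 DRG were sequenced as paired reads of 75 bp. Per the methods and the submitters' notes, the authors aligned reads to rn5 with RefSeq genes and computed FPKM with Cufflinks. The deposited tables, 1 per comparison, hold 1 FPKM per group over 3 libraries, beside the authors' own fold changes and p-values, which were not used. Whether counting used strand is not given in the sources used here. Rows joining several genes were not assigned to a member. Spreadsheet software had turned 23 symbols into dates.

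Ratios and log2 ratios were taken from the deposited FPKM without a pseudocount. A gene counted as called past 1.5-fold with a mean of the 2 values of at least 1 FPKM. Loci are as the files give them. In the shRNA table an unnamed row holds most of the summed FPKM (5.96e+06 of 6.54e+06 in SNL+control shRNA). The highest value in SNL+Neat1 shRNA was 5.35e+06. In the SNL table the highest value was 213805 of a summed 1.02e+06 FPKM in Control and 433226 of 1.14e+06 FPKM in SNL. Such high values leave ratios between genes within a group untouched. Their effect on the ratio of a gene between groups was not examined, apart from scaling to the median ratio. The 10 genes and the 14 lists were chosen with earlier results of these data known. Named are all members and the 3 genes nearest to P2rx3 and P2ry2. Any purinergic list gene with a mean of at least 1 FPKM in either table could be named, and those given were picked among these after values were seen. P2ry10, P2ry4 and the marker genes given by name were named after values were seen. The criterion over 3 ligated groups, the gene pairs, the neighbours, the promoters and the motifs were chosen after values were seen. The counting was tested on simulated data with large planted differences, which checks the code and not how reliable calls from 1 value per group are. Alternatives were other folds, FPKM filters, pseudocounts, scaling to the median ratio, and summed or joined rows. Python 3.11.15, numpy 2.4.6, pandas 2.3.3 and matplotlib 3.10.9 were used.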

Additional observations from a re-analysis of the deposited data

How the results depend on the processing

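Over the alternative settings, 40 counts of members higher or lower were recomputed, and 38 stayed within 1.5 times of the reported count. With a mean of at least 5 FPKM required, 2 in place of 4 members were higher after SNL (14.3% of all genes), since P2ry12 and P2ry14 have lower means. Without a filter on FPKM, 1 member, P2rx6, was higher in the group labelled Neat1 shRNA (5.21% of all genes). Among log2 ratios, 97 moved by less than 0.1 and stayed on their side of 1.5-fold, a tolerance set here because no spread is known, and 23 moved more or crossed 1.5-fold. Each member kept its sign in every setting. Added after seeing the data, SNL+control shRNA in place of SNL gave 5 higher and 4 lower (29.4% and 17.1% of all genes), and after scaling to the median 4 higher and 5 lower (24.3% and 21.3%), as P2rx4 and P2ry2 crossed 1.5-fold. No paired analysis was possible because the files hold 1 value per group. For the same reason no library could be left out, and genes near 1 FPKM, such as P2rx6 after ligation, are the least certain.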

Other observations

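The merged locus that holds P2ry12 and P2ry14 in the SNL table also holds Gpr171, a G protein-coupled receptor gene known from T cells, and P2ry13. After SNL, Gpr171 went from 0.390 FPKM in Control to 2.67 FPKM in SNL. The row that joins Igsf10 with Med12l went the other way, from 4.74 to 2.24 FPKM, and a separate Igsf10 row went from 0.300 to 1.79 FPKM, so rows of this locus differed in direction. P2ry10, a receptor gene of lymphoid cells, was 0.927 FPKM in SNL+control shRNA and 0.253 FPKM in SNL+Neat1 shRNA, under the filter on low values.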
